A study of Homo sapiens with 12 samples.

Results

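The genes of chromosome 12 were followed by their position, from the end of the short arm to the end of the long arm, in HEL cells after disruption of KDM4C. A gene was taken as a member where the first chromosome entry of its row in the count table was chromosome 12 and its level reached a CPM (counts scaled to a library of 1e+06 counts) of 1 in at least 4 libraries. This left 703 of the 1864 chromosome 12 genes in the table, or 37.7%, among 13004 genes that passed the same level on all chromosomes. Of the members, 647 reached that level in all 12 libraries and 56 in fewer, and 0 did so in the libraries of 1 group alone. The members were chosen by this measured level and by position, and the level is given here as a description: the members nearest above it were BCDIN3D-AS1, LOC105369748 and EID3, with a fourth-highest library at 1.003, 1.01 and 1.03 CPM, and the genes nearest below it were POC1B-AS1, CPNE8-AS1 and GOLGA2P5, at 0.981, 0.981 and 0.996 CPM. RefSeq described 634 members as protein-coding, 41 as long noncoding RNAs, 13 as transcribed pseudogenes and 1 as another noncoding RNA, and 14 were not matched. They took 6.96% to 7.43% of all counts of a library.

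HEL is a human erythroleukemia cell line with mutated JAK2, and the cells used here stably expressed Cas9 under blasticidin at 15 µg/mL. Control cells received a lentiviral guide against luciferase, a gene the cells do not have, and the KDM4C cells received guide sg2 or guide sg3. All cells were held in puromycin at 1.5 µg/mL for 11 days, and the column names mark every library as treated with DMSO, the solvent control. There were 12 RNA-seq libraries, 4 for each group, which were split at the last culture step: separate transductions are not stated, so p-values measure the spread between these libraries, which may be technical. Each group is a population of transduced cells, and in such bulk RNA fewer cells with a transcript and less of it per cell cannot be told apart.

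KDM4C itself was at 67.8, 70.2, 68.1 and 71.4 CPM in the controls (here and below, gene levels are CPM scaled by TMM factors, and list sums are CPM of all counts), 40.5, 43.0, 49.8 and 55.1 with sg2 and 59.5, 60.8, 63.3 and 63.2 with sg3. Both guides thus lay below control, at log2 fold changes of -0.57 ± 0.07 (SE, edgeR adjusted p = 2.6e-05) with sg2 and -0.17 ± 0.07 (SE, edgeR adjusted p = 0.0499) with sg3. The sg3 call was lost in 11 of 20 alternative analyses, among them each that left out 1 control library, at log2 fold changes of -0.18 to -0.15 over all of them. The transcript level is no measure of the protein. Library totals ran from 10031809 to 78966125 counts. Within sg2, libraries 1 and 2 stood apart from 3 and 4: in 170 members both were lower than both others, and in 222 both were higher. Part of such counts arises by order alone, and the share over all genes was not counted. The split was not particular to sg2. The reduced chi-square between 2 libraries, over genes, is larger where they differ more. In sg3 it was 1.71 for libraries 1 and 2, 3.98 for 3 and 4 and 6.27 to 12.4 across them. In sg2 these were 2.89, 2.46 and 3.79 to 7.02. In the controls it was 2.09 for libraries 1 and 3, 3.78 for 2 and 4 and 6.07 to 7.29 across. Without sg2 libraries 1 and 2 the average gave 225 members higher and 101 lower, sg2 gave 165 and 66, the medians were 0.06 and 0.06, and the bins in which all knockout libraries lay above control were again 5.

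KDM4C encodes a histone demethylase that removes methyl groups from lysines of histone H3, marks of silent chromatin and of transcribed gene bodies, and its own gene lies on chromosome 9. Chromosome 12 carries several gene clusters that are usually read as neighbours: the C-type lectin and natural killer receptor genes and a group of glycolysis genes on the short arm, and the type II keratin and HOXC clusters on the long arm. Genes of one cluster can share enhancers and chromatin domains, so that position is one way to read an expression table. Where a whole stretch moves, the median of its genes shows it, and single strong genes do not.

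The guide sequences are shown because the chromosome holds a near match to some of them. Each guide is written from its 5′ end.
sg2: gcaagagtataatgcaacag
sg3: ggtcatctgtgactgagtcg
luciferase guide: gattctaaaacggattacca
A search of both strands of chromosome 12 of hg38 for 20-base sites next to an NGG motif found 0 sites with fewer than 3 mismatches for any of the 3 guides. With 3 mismatches there was 1 site for sg2, 1 for the luciferase guide and 0 for sg3. In the site sequences, capitals mark the bases that differ from the guide.
sg2 site, chr12:23990176-23990195, minus strand: gTaagagAataatgcaacTg
luciferase guide site, chr12:115319496-115319515, minus strand: gTttctaaaTAggattacca
Counted from 1 at the 5′ end of the guide, the sg2 site differs by C2T, T8A and A19T and is followed by AGG, and it lies in an intron of SOX5, a transcription factor of cartilage and neural development. SOX5 was read at 12.7, 11.2, 11.48 and 13.1 CPM in the 4 control libraries, 13.8, 12.7, 12.6 and 13.1 with sg2 and 12.8, 15.1, 10.1 and 13.7 with sg3. The ranges of the groups overlapped, and its log2 fold change was 0.12 ± 0.10 (SE, edgeR adjusted p = 0.42) with sg2. The luciferase guide site differs by A2T, A10T and C11A, is followed by TGG and lies between genes, 639061 bases from MED13L, the nearest member. MED13L, a part of the kinase module of the Mediator complex, had 163 to 187 CPM in the controls, 184 to 198 with sg2 and 199 to 217 with sg3, so that the control and sg2 ranges overlapped and all sg3 libraries lay above control. It was called higher, at 0.22 ± 0.04 (SE, edgeR adjusted p = 0.00044) in the average, 0.17 ± 0.05 (SE, edgeR adjusted p = 0.012) with sg2 and 0.26 ± 0.05 (SE, edgeR adjusted p = 0.00027) with sg3. Whether these sites were cut was not measured.

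Among the strongest falls on the chromosome were NOP2, UTP20 and RBM19, which act in the making of ribosomal RNA and whose values follow further on. Their promoters, from 250 bases before to 50 bases after the transcript start in RefSeq on GRCh38.p14, are shown with that of BHLHE41, one of the strongest rises, which encodes a repressor of the basic helix-loop-helix family that binds E-boxes. Capitals mark CACGTG, the palindromic E-box, which reads alike on both strands.
NOP2: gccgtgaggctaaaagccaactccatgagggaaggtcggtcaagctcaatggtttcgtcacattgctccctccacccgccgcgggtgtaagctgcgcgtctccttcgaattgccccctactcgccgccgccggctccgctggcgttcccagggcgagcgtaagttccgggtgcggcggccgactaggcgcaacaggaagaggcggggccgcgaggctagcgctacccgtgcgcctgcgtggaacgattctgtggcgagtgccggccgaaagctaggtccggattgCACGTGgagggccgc
UTP20: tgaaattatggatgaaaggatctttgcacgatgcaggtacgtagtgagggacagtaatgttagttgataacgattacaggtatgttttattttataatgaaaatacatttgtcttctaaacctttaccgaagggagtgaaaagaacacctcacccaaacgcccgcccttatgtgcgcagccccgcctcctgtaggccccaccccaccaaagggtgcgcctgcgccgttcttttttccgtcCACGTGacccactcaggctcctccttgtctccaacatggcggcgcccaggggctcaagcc
RBM19: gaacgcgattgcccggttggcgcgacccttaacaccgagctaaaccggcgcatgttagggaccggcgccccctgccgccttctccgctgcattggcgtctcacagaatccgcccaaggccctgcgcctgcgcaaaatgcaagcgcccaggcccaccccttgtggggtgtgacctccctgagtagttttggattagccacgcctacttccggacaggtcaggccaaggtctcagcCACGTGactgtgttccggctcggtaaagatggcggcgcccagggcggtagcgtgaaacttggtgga
BHLHE41: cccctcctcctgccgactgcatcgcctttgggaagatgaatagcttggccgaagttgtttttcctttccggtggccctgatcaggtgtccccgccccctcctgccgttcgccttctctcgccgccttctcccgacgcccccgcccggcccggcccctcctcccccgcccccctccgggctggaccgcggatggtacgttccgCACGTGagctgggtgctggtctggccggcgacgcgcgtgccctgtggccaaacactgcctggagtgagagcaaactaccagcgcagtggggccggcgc
The windows are chr12:6568242-6568541, minus strand (NOP2), chr12:101279855-101280154, plus strand (UTP20), chr12:113966276-113966575, minus strand (RBM19) and chr12:26124988-26125287, minus strand (BHLHE41). The E-box starts 36 bases into the transcript of NOP2, and 10, 16 and 48 bases before the start of UTP20, RBM19 and BHLHE41. CACGTG was found in 7.43% of all 27305 RefSeq promoters of this length, and in 71 (13.6%) of the 521 at hand for members. These were 521 of the 703 members (74.1%), since the table is not complete, so a comparison of motif shares over sets of members is void. The 4 promoters were picked from those of the genes with the largest changes because they hold the E-box, and the match is a description. Of the 20 genes named below as largest rises and falls, 13 had a promoter at hand and 6 of these held CACGTG, SPRYD4 and NT5DC3 among them. The promoters of GDF3, CRACR2A, METTL25, NTN4, PXN, KRT8 and C12orf76 did not hold it. A link between the E-box and the changes was not tested.

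With the 2 guides averaged, 235 of the 703 members were called higher than control (33.4%) and 88 lower (12.5%), at an edgeR adjusted p under 0.05. Of all 13996 genes tested, 21.6% were called higher and 22.3% lower. The split was the same way with each guide: 182 members were higher and 46 lower with sg2, against 14.5% and 13.9% of all genes tested, and 228 were higher and 101 lower with sg3, against 21.9% and 22.2% (44.1% in either direction). These contrasts share the control libraries. The count of members lower with sg2 was 28 without sg2 library 3 and 30 without control library 1. The changes were small. The median log2 fold change of the members called higher in the average was 0.28 and of those called lower -0.18, and 9 members were called higher with a log2 fold change of at least 1 (1.18% of all genes tested were), whereas 0 members were lower by as much (0.657%). With sg2 alone 5 members rose by as much (0.75% of all genes tested) and 0 fell (0.336%), and with sg3 10 rose (1.88%) and 2 fell (1.11%). Read without a model, every knockout library lay above every control library in 155 members, against 12% of all genes tested, and below in 36, against 11.3%. With sg2 alone these counts were 190 (14.9%) and 41 (14.3%), and with sg3 205 (20.2%) and 93 (19.5%).

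Over all members the median log2 fold change was 0.06 in the average, 0.06 with sg2 and 0.05 with sg3, where the median over all genes tested was between -0.01 and 0.00 in each. In single libraries, the median over members of log2 CPM minus the control mean was 0.0798, 0.0808, 0.0623 and 0.0568 with sg2 and 0.0722, 0.0698, 0.0396 and 0.0489 with sg3, and -0.0074 to 0.0068 in the controls. All 8 knockout libraries thus lay above all 4 controls. No other chromosome had a median as high: X followed at 0.03 in the average, and the lowest were chromosome 14 at -0.12 and chromosome 9, which carries KDM4C, at -0.09. In the average 61.0% of members had a positive log2 fold change, against 49.2% of all genes tested. A median over members has no test here, because the chromosome was chosen with earlier results of these data known.

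**Figure D1:**
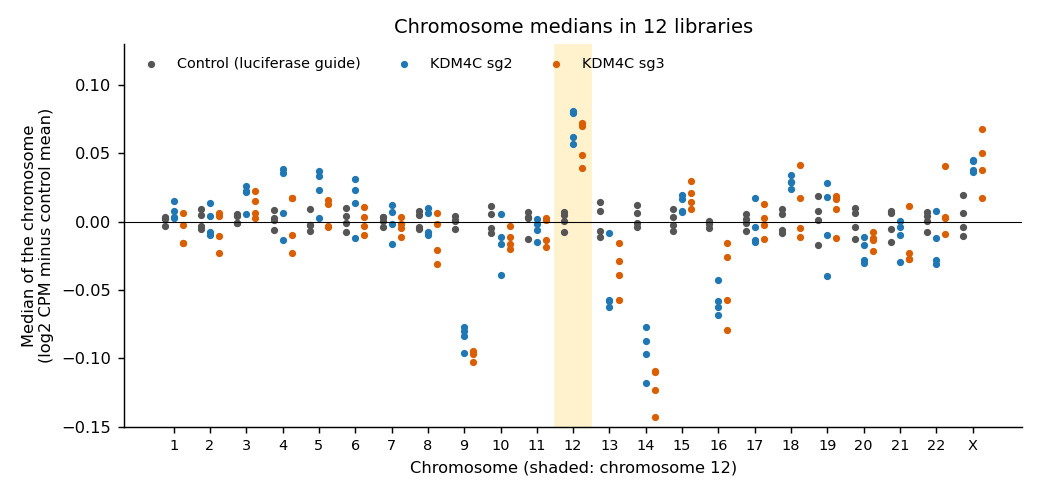
Median over the genes of each chromosome of log2 CPM minus the mean of the control libraries (vertical axis, log2 units), one point per library, for control (grey), sg2 (blue) and sg3 (orange), with chromosome 12 shaded. The 8 knockout libraries of chromosome 12 sit between 0.0396 and 0.0808, above its 4 controls, and those of chromosomes 9 and 14 sit below theirs.

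The chromosome was cut into 14 bins of 10 Mb from the start of the short arm, and the bin medians ranged from -0.09 to 0.18 in the average. In 5 bins, the 5th, 6th, 8th, 10th and 12th, every knockout library lay above every control library, and in 0 bins did every one lie below. Of 284 bins of this length with at least 5 genes on the other chromosomes, 11.6% lay above in this way and 14.8% below. For single guides, 6 bins lay above control with sg2 (16.5% of bins elsewhere) and 1 below (17.6%), and 6 lay above with sg3 (15.5%) and 0 below (22.9%).

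**Figure D2:**
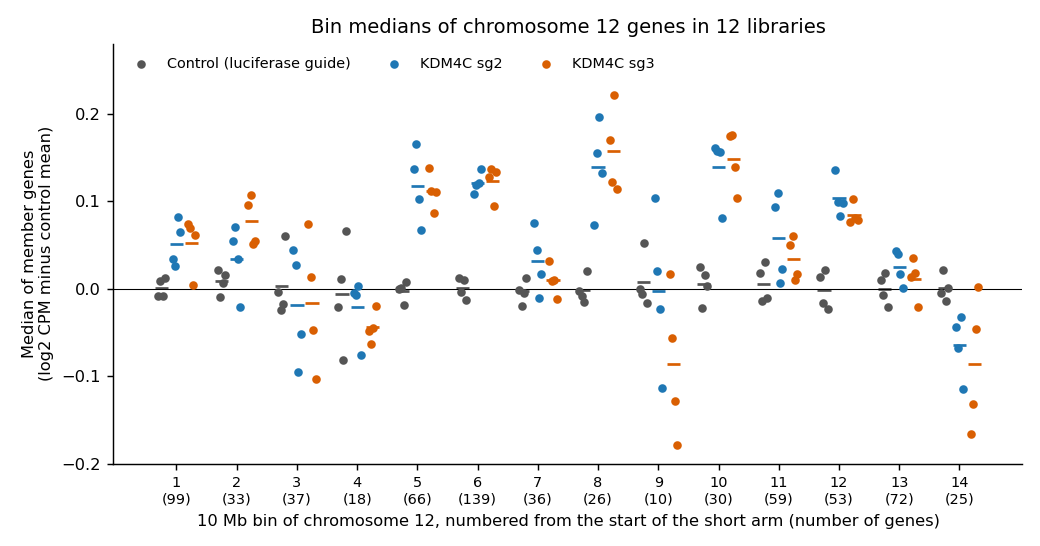
Median over the genes of each 10 Mb bin of chromosome 12 of log2 CPM minus the control mean (vertical axis, log2 units), one point per library and a dash for the mean of each group, with the number of genes under each bin. Bins 5, 6, 8, 10 and 12 show all 8 knockout libraries above all 4 controls, and bin 9, with 10 genes, shows the widest scatter.

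The 5th and 6th bins, from 40 to 60 Mb, lie on the long arm and hold the keratin and HOXC clusters, and the 6th has the most members of all bins. Of all genes tested, 21.6% were called higher and 22.3% lower in the average. In the 5th bin 26 of 66 genes were called higher (39.4%) and 3 lower (4.5%). Its library medians were -0.019 to 0.0079 in the controls, 0.137, 0.166, 0.102 and 0.0669 in the sg2 libraries and 0.138, 0.112, 0.087 and 0.11 in the sg3 libraries. In the 6th bin 63 of 139 genes were called higher (45.3%) and 14 lower (10.1%). The medians were -0.013 to 0.012 in the controls, 0.108, 0.119, 0.121 and 0.137 in the sg2 libraries and 0.128, 0.137, 0.0952 and 0.133 in the sg3 libraries. The sg2 and sg3 ranges overlapped there, and their fitted medians were 0.12 with sg2 and 0.12 with sg3. In a finer division into 5 Mb, the 3 pieces from 45 to 60 Mb had medians of 0.11, 0.13 and 0.11 in the average, with all knockout libraries above control. The piece from 40 to 45 Mb had a median of 0.08, and its knockout libraries, from -0.0068 up, overlapped controls of up to 0.049.

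The 8th bin, from 70 to 80 Mb, and the 10th, from 90 to 100 Mb, had the highest medians of the chromosome, 0.16 and 0.18 in the average, where the bins elsewhere ran from -0.22 to 0.20. In the 8th bin 11 of 26 genes were called higher (42.3%) and 1 lower (3.8%), against 21.6% and 22.3% of all genes tested. Its library medians were -0.015 to 0.021 in the controls, 0.0734, 0.155, 0.196 and 0.132 in the sg2 libraries and 0.171, 0.122, 0.221 and 0.114 in the sg3 libraries. In the 10th bin 15 of 30 genes were called higher (50%) and 1 lower (3.3%), and the medians were -0.022 to 0.025 in the controls, 0.161, 0.158, 0.156 and 0.0805 in the sg2 libraries and 0.174, 0.176, 0.139 and 0.103 in the sg3 libraries. Of its 5 Mb pieces, that from 95 to 100 Mb kept the groups apart and that from 90 to 95 Mb did not. Between them the 9th bin held only 10 members, and its medians of -0.016 to 0.053 in the controls, -0.11 to 0.1 with sg2 and -0.18 to 0.016 with sg3 overlapped between groups. The 12th bin, from 110 to 120 Mb, had 24 of 53 genes called higher (45.3%) and 7 lower (13.2%), at library medians of -0.023 to 0.021 in the controls, 0.136, 0.0995, 0.0831 and 0.0985 in the sg2 libraries and 0.0763, 0.103, 0.0808 and 0.079 in the sg3 libraries.

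Elsewhere the medians lay nearer to the controls. The 1st bin, at the tip of the short arm, is rich in genes, and 25 of its 99 members were called higher (25.3%) and 17 lower (17.2%). These shares were near the 21.6% and 22.3% of all genes tested. Its medians were -0.0086 to 0.012 in the controls, 0.026 to 0.082 with sg2 and 0.004 to 0.074 with sg3. All 4 sg2 libraries lay above the controls in that bin, whereas the lowest sg3 library lay among them. The 2nd bin reversed this, with medians of -0.0097 to 0.022 in the controls, -0.021 to 0.071 with sg2 and 0.051 to 0.11 with sg3, where all 4 sg3 libraries lay above the controls and the sg2 range overlapped them. In the 3rd and 4th bins, from 20 to 40 Mb, the fitted medians were -0.04 and -0.03 in the average, with library ranges that overlapped between groups. The 7th, 11th and 13th bins had fitted medians of 0.02, 0.04 and 0.02, and their knockout ranges overlapped the control range.

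The last bin, from 130 Mb to the end of the long arm, had the lowest median. Of its 25 members 2 were called higher and 6 lower (24%, against 22.3% of all genes tested), and 6 had a positive log2 fold change, with a fitted median of -0.09. Its library medians were -0.014 to 0.021 in the controls, -0.0432, -0.0681, -0.032 and -0.114 in the sg2 libraries and -0.166, -0.132, -0.0461 and 0.00157 in the sg3 libraries. All 4 sg2 libraries lay below every control, whereas 1 sg3 library lay among the controls. Read by arm, with the border set at 36 Mb, the 183 members of the short arm had a median of 0.02 and 42 higher and 27 lower calls, and the 520 of the long arm a median of 0.07 and 193 higher and 61 lower calls. Of all genes tested, 21.6% were called higher and 22.3% lower, and the short arm was near the former share in its higher calls.

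**Figure D3:**
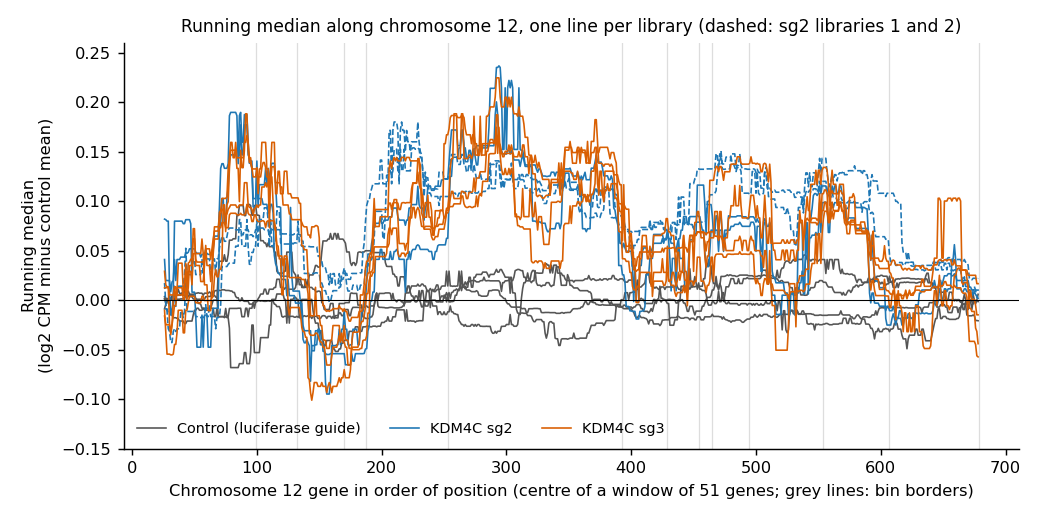
Running median over 51 neighbouring members of log2 CPM minus the control mean (vertical axis, log2 units) along the 703 members in order of position, one line per library, with grey lines at the bin borders and dashed lines for sg2 libraries 1 and 2. The knockout lines rise above the controls over the stretch from the 5th bin to the 6th. In the 3rd bin some of them start above the controls. Over the later part of that bin and most of the 4th the knockout lines lie among and below the controls. The lines of sg2 libraries 1 and 2 run above the other sg2 libraries over parts of the long arm.

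**Figure D4:**
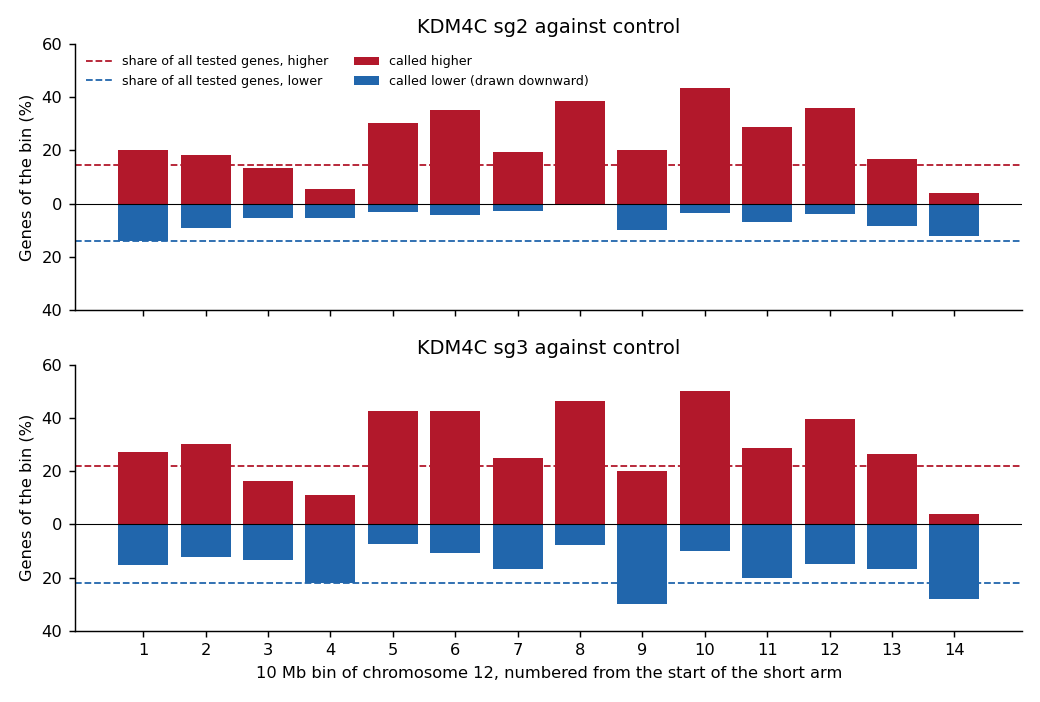
Share of the members of each 10 Mb bin called higher (upward bars) or lower (downward bars) at an edgeR adjusted p under 0.05, in percent, for sg2 (top) and sg3 (bottom) against control, with dashed lines at the shares over all genes tested. The upward bars pass the dashed line most in the 10th bin, and in the 3rd, 4th and 14th bins they stay under it with both guides.

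Single genes changed far more than the medians. The largest rises and falls were taken among members with a mean log2 CPM of at least 2. These also had to be called with the same sign in the average and with both guides. Under this rule the 10 largest rises lay in 8 different bins and the 10 largest falls in 6. NTN4, in the 10th bin (chr12:95657807-95791155, minus strand, in hg38), which encodes a netrin of basement membranes, was read at 1.45, 2.15, 2.51 and 2.78 CPM in the 4 control libraries, 4.74, 3.18, 8.47 and 6.88 with sg2 and 7.33, 10.3, 7.70 and 6.62 with sg3. The groups did not overlap, with all 8 knockout libraries above control, and the log2 fold change was 1.62 ± 0.23 (SE, edgeR adjusted p = 3.7e-05) in the average. PTPRB (chr12:70515870-70637440, minus strand), a receptor tyrosine phosphatase known from the endothelium, was read at 3.65, 5.41, 4.55 and 5.18 CPM in the 4 control libraries, 7.19, 7.51, 9.47 and 11.6 with sg2 and 11.6, 10.9, 12.4 and 12.4 with sg3. Both guides lay above the whole control range, at 1.10 ± 0.13 (SE, edgeR adjusted p = 5.6e-06). PXN (chr12:120210439-120265771, minus strand), which encodes the focal adhesion adaptor paxillin, had 3.42, 3.05, 3.09 and 2.63 CPM in the 4 control libraries, 6.18, 5.77, 6.98 and 7.59 with sg2 and 6.20, 7.83, 5.26 and 8.20 with sg3. Knockout and control ranges were apart, the knockout above, at 1.11 ± 0.13 (SE, edgeR adjusted p = 5.3e-06).

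BHLHE41 (chr12:26120030-26125037, minus strand), the E-box repressor, was read at 5.02, 4.96, 5.19 and 5.56 CPM in the 4 control libraries, 9.27, 9.04, 10.1 and 11.3 with sg2 and 11.9, 12.96, 10.6 and 11.01 with sg3. None of the 8 knockout libraries reached into the control range, and all lay above it, with a log2 fold change of 1.06 ± 0.09 (SE, edgeR adjusted p = 2.2e-07). ALDH2 (chr12:111766933-111817532, plus strand), the mitochondrial aldehyde dehydrogenase that clears acetaldehyde, had 7.22, 6.34, 6.82 and 6.54 CPM in the 4 control libraries, 11.50, 12.5, 12.6 and 12.6 with sg2 and 12.6, 14.1, 11.3 and 10.7 with sg3. Every knockout library lay above every control library, at 0.87 ± 0.08 (SE, edgeR adjusted p = 6.6e-07). C12orf76 rose by 0.78 and CALCOCO1, which encodes a coiled-coil coactivator and receptor of selective autophagy, by 0.72 in the average. CALCOCO1 was read at 20.7, 21.4, 20.98 and 22.9 CPM in the 4 control libraries, 26.03, 25.2, 36.4 and 38.5 with sg2 and 39.2, 37.4, 45.1 and 39.6 with sg3. Here sg2 libraries 1 and 2 stood between the controls and the other knockout libraries.

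Among the falls, GDF3 (chr12:7689784-7695775, minus strand), a ligand of the TGF-beta family, was read at 12.2, 11.7, 13.99 and 13.4 CPM in the 4 control libraries, 9.92, 10.97, 9.47 and 8.05 with sg2 and 7.45, 6.03, 6.79 and 6.84 with sg3. The groups did not overlap, with all 8 knockout libraries below control, at -0.64 ± 0.08 (SE, edgeR adjusted p = 1.5e-05). It was also the member with the smallest p between the guides, with a log2 fold change of -0.53 ± 0.11 (SE, edgeR adjusted p = 0.079) for sg3 against sg2 and the 4 sg3 libraries below the 4 sg2 libraries. C12orf45 had 32.4 to 50.2 CPM in the controls, 26.1 to 34.9 with sg2 and 22.1 to 26.1 with sg3 and fell by 0.60 on the log2 scale, with control and sg2 ranges that overlapped. SPRYD4 fell by 0.44, METTL25 by 0.44 and NT5DC3, a member of the 5′-nucleotidase domain family, by 0.43. CRACR2A, a regulator of store-operated calcium entry, had 37.6 to 42.4 CPM in the controls, 32.4 to 34.7 with sg2 and 26.3 to 30.2 with sg3, with -0.33 ± 0.05 (SE, edgeR adjusted p = 3.4e-05) in the average.

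**Figure D5:**
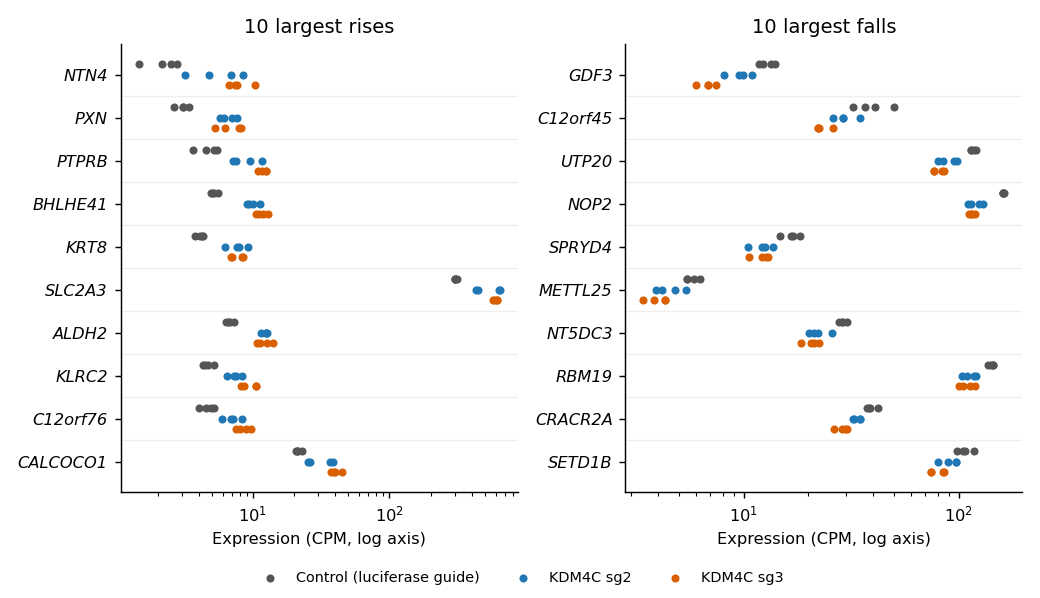
Expression in CPM (horizontal log axis) of the 10 largest rises (left) and the 10 largest falls (right), one point per library, for control (grey), sg2 (blue) and sg3 (orange). Both sets were taken among members with a mean log2 CPM of at least 2, called with the same sign in the average and with both guides. NTN4 and PTPRB sit at 1.45 to 5.41 CPM in the controls and higher in every knockout library, and NOP2 sits near 161 CPM in the controls and at 111 to 130 CPM in the knockout libraries.

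Glycolysis genes of the chromosome rose or did not pass the test. 4 of 8 members were called higher and 0 lower with the guides averaged, at a median log2 fold change of 0.20, and the counts were the same with each guide. In the average, 33.4% of all members and 21.6% of all genes tested were called higher, and 12.5% and 22.3% lower. These shares stand beside each list count here and below, and no list was tested as a set. SLC2A3 (chr12:7919230-7936187, minus strand), the high-affinity glucose transporter GLUT3, in the 1st bin, was read at 302, 302, 315 and 304 CPM in the 4 control libraries, 444, 429.7, 629.6 and 640.5 with sg2 and 614, 619, 585 and 577 with sg3. Both guides lay above the whole control range, at 0.89 ± 0.09 (SE, edgeR adjusted p = 1.6e-06), and sg2 libraries 1 and 2 stood below the other 6 knockout libraries. Its neighbour and near copy SLC2A14 could share reads with it. GAPDH (chr12:6534517-6538371, plus strand), the glyceraldehyde phosphate dehydrogenase, was read at 3241, 3425, 3409.5 and 3262 CPM in the 4 control libraries, 3588, 3632, 4084 and 4559.8 with sg2 and 4507, 4608, 4281 and 4378 with sg3. Knockout and control ranges were apart, the knockout above, at 0.33 ± 0.05 (SE, edgeR adjusted p = 8.9e-05). ENO2, a neuronal enolase, had 143 to 151 CPM in the controls, 166 to 228 with sg2 and 214 to 229.5 with sg3, at 0.47 ± 0.07 (SE, edgeR adjusted p = 2.7e-05). PFKM, the muscle form of phosphofructokinase, in the 5th bin, had 66.3 to 70.7 CPM in the controls, 83.7 to 88.8 with sg2 and 79.8 to 95.6 with sg3, at 0.33 ± 0.04 (SE, edgeR adjusted p = 1.1e-05). The lactate dehydrogenase subunit LDHB did not pass the test, with a log2 fold change of 0.00 ± 0.05 (SE, edgeR adjusted p = 0.97).

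Of the ribosome list more members were called lower than higher. Summed, in CPM of all counts, the list was at 6036 to 6322 CPM in the controls, 6344 to 6738 with sg2 and 6215 to 6828 with sg3, so that all sg2 libraries lay above control. Of the list of ribosomal proteins and assembly factors, 2 of 17 members were called higher and 11 lower with the guides averaged, at a median log2 fold change of -0.17, and the calls were 2 higher and 10 lower with sg2, and 3 higher and 10 lower with sg3. NOP2 (chr12:6556871-6568291, minus strand), a methyltransferase of the large ribosomal RNA, in the 1st bin, was read at 161, 164, 161 and 160.3 CPM in the 4 control libraries, 125, 130.5, 115 and 111 with sg2 and 112, 115, 116 and 119 with sg3. None of the 8 knockout libraries reached into the control range, and all lay below it, at -0.45 ± 0.04 (SE, edgeR adjusted p = 3.1e-07). UTP20 (chr12:101280105-101386618, plus strand), a part of the small subunit processome, in the 11th bin, had 115, 121, 114 and 118 CPM in the 4 control libraries, 95.2, 98.1, 85.1 and 80.5 with sg2 and 77.3, 76.9, 85.7 and 83.4 with sg3. Every knockout library lay below every control library, at -0.46 ± 0.05 (SE, edgeR adjusted p = 2.3e-06). RBM19 (chr12:113816740-113966371, minus strand), an RNA-binding protein of pre-ribosomes, in the 12th bin, had 138, 144, 141 and 145 CPM in the 4 control libraries, 118, 120.4, 110.0 and 104 with sg2 and 101, 105, 113 and 119 with sg3. The groups did not overlap, with all 8 knockout libraries below control, at -0.35 ± 0.04 (SE, edgeR adjusted p = 1.3e-05). DDX51, a helicase of large subunit assembly, had the largest change of the last bin, with 57.1 to 60.2 CPM in the controls, 45.8 to 50.2 with sg2 and 43.03 to 47.2 with sg3 and -0.32 ± 0.04 (SE, edgeR adjusted p = 5.3e-06). These falling genes thus lay in bins with positive fitted medians, 0.04 in the 1st, 0.04 in the 11th and 0.11 in the 12th, and in the last bin, whose median was lowest. Of the bins with positive medians named here, only in the 12th did every knockout library lie above every control library. The 2 list members that rose were RPLP0, the stalk protein of the large subunit, at 0.23 ± 0.03 (SE, edgeR adjusted p = 2.5e-05), and the histone chaperone NAP1L1, at 0.25 ± 0.04 (SE, edgeR adjusted p = 7.7e-05).

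Of translation and tRNA genes 2 of 8 members were called higher and 2 lower with the guides averaged, at a median log2 fold change of -0.07. EIF4B, an initiation factor that assists the cap-binding helicase, was read at 1009, 991, 1000.4 and 1039.7 CPM in the 4 control libraries, 1214, 1212, 1249 and 1259 with sg2 and 1285, 1317, 1292 and 1275 with sg3. Both guides lay above the whole control range, at 0.32 ± 0.03 (SE, edgeR adjusted p = 3.9e-07). METTL1, the tRNA guanosine methyltransferase, fell, at -0.30 ± 0.07 (SE, edgeR adjusted p = 0.0016). EEF1AKMT3, a methyltransferase of elongation factor 1A, rose by 0.21, a call lost in 7 of 19 alternative analyses. Of splicing and mRNA processing genes 3 of 13 members were called higher and 3 lower with the guides averaged, at a median log2 fold change of -0.02, led by PAN2, a deadenylase subunit, at 0.49 ± 0.06 (SE, edgeR adjusted p = 1.3e-05). These counts and those of the translation list were near the shares of all genes tested, 21.6% higher and 22.3% lower. HNRNPA1, the most abundant gene of the 6th bin, was at 2193 to 2438 CPM in the controls, 2377 to 2443 with sg2 and 2172 to 2511 with sg3, with overlapping ranges and a log2 fold change of 0.06 ± 0.04 (SE, edgeR adjusted p = 0.26). TARBP2, the partner of Dicer, fell by 0.17 and PRPF40B rose by 0.27.

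For chromatin regulators, the class that KDM4C itself belongs to, 11 of 26 members were called higher and 3 lower with the guides averaged, at a median log2 fold change of 0.07, with 7 higher and 2 lower with sg2, and 11 higher and 4 lower with sg3. HDAC7, a class IIa histone deacetylase in the 5th bin, was read at 212, 225, 215 and 220.0 CPM in the 4 control libraries, 261, 256, 276 and 284 with sg2 and 280.1, 284, 294 and 329 with sg3. Knockout and control ranges were apart, the knockout above, at 0.37 ± 0.04 (SE, edgeR adjusted p = 6e-06). ING4, a reader of methylated histone H3 in an acetyltransferase complex, rose at 0.45 ± 0.07 (SE, edgeR adjusted p = 0.00012). SETD1B, a histone H3 methyltransferase of the COMPASS family, fell, with 98.2 to 118 CPM in the controls, 80.00 to 97.7 with sg2 and 74.5 to 85.3 with sg3 and -0.33 ± 0.06 (SE, edgeR adjusted p = 0.00025). CHD4, the remodeller of the NuRD complex and the most abundant gene of the list, was at 1081 to 1124 CPM in the controls, 1013 to 1119 with sg2 and 1034 to 1117 with sg3, with a log2 fold change of -0.03 ± 0.03 (SE, edgeR adjusted p = 0.44).

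Signalling genes were called in 1 direction only. Of cytokine, JAK-STAT and RAS signalling genes 11 of 17 members were called higher and 0 lower with the guides averaged, at a median log2 fold change of 0.18, with 11 higher and 0 lower with sg2, and 9 higher and 0 lower with sg3. Rises prevailed over the whole chromosome too, with 33.4% of all members called higher in the average and 12.5% lower. DUSP6, the phosphatase of ERK kinases, in the 9th bin, was read at 20.8, 22.4, 22.3 and 20.4 CPM in the 4 control libraries, 30.1, 27.5, 32.8 and 32.2 with sg2 and 30.5, 30.8, 31.4 and 25.8 with sg3. None of the 8 knockout libraries reached into the control range, and all lay above it, at 0.48 ± 0.06 (SE, edgeR adjusted p = 1.5e-05). ERBB3, a receptor of the epidermal growth factor family, was low, with 1.05 to 1.53 CPM in the controls, 1.94 to 2.44 with sg2 and 1.72 to 3.24 with sg3, and had 0.82 ± 0.17 (SE, edgeR adjusted p = 0.0012). ACVRL1, a receptor of the TGF-beta family, also low, had 0.65 ± 0.14 (SE, edgeR adjusted p = 0.0015). PTPN11, the SHP2 phosphatase and the most abundant gene of the list, had 394 to 413 CPM in the controls, 386 to 441 with sg2 and 400.1 to 417 with sg3 and 0.03 ± 0.04 (SE, edgeR adjusted p = 0.53). ADCY6, an adenylate cyclase with the largest change of the 5th bin, was read at 44.8, 42.1, 41.3 and 47.4 CPM in the 4 control libraries, 62.1, 60.3, 75.3 and 76.1 with sg2 and 72.2, 68.5, 67.8 and 70.9 with sg3. Every knockout library lay above every control library, at 0.65 ± 0.06 (SE, edgeR adjusted p = 7.5e-07).

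In the interferon list 3 of 4 members were called higher and 0 lower with the guides averaged, at a median log2 fold change of 0.15. STAT2, a transcription factor of the interferon response, rose by 0.18 and TRAFD1, a brake on innate signalling, by 0.18, while the call of the kinase TBK1, at 0.12, was lost in 9 of 19 alternative analyses. Of p53 and cell death genes 4 of 11 members were called higher and 3 lower with the guides averaged, at a median log2 fold change of 0.07. BTG1, an antiproliferative gene in the 10th bin, was read at 18.5, 17.7, 20.6 and 19.1 CPM in the 4 control libraries, 22.9, 26.6, 36.3 and 34.1 with sg2 and 33.4, 34.5, 27.6 and 28.3 with sg3. The groups did not overlap, with all 8 knockout libraries above control, at 0.68 ± 0.10 (SE, edgeR adjusted p = 5.6e-05). APAF1, the core of the apoptosome, lies at the other end of that bin and rose by 0.30, PHLDA1, in the 8th bin, by 0.63 and TNFRSF1A, a receptor of tumor necrosis factor, by 0.30. MDM2, the ubiquitin ligase of p53, was at 115 to 138 CPM in the controls, 118 to 132 with sg2 and 103 to 109 with sg3, lower in the average at -0.14 ± 0.05 (SE, edgeR adjusted p = 0.023) but not called with sg2 alone, at -0.02 ± 0.05 (SE, edgeR adjusted p = 0.78). Its call in the average was lost in 2 of 19 alternative analyses.

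Cell cycle and replication genes, the list with most members, had 8 higher and 5 lower of 28 and a median of -0.0041. Of all genes tested, 21.6% were called higher and 22.3% lower. CDKN1B, the inhibitor p27 of cyclin-dependent kinases, had 62.7 to 65.7 CPM in the controls, 71.2 to 79.3 with sg2 and 74.3 to 81.6 with sg3 and 0.25 ± 0.04 (SE, edgeR adjusted p = 8.9e-05). CDK17 rose by 0.28 and KNTC1, a part of the kinetochore checkpoint, by 0.24. RAN, the nuclear transport GTPase and the most abundant gene of the list and of the last bin, was at -0.10 ± 0.05 (SE, edgeR adjusted p = 0.073) in the average. Of sterol and lipid genes 6 of 11 members were called higher and 0 lower with the guides averaged, at a median log2 fold change of 0.12. They included MVK (mevalonate kinase) at 0.37 ± 0.06 (SE, edgeR adjusted p = 0.00017), ACACB (acetyl-CoA carboxylase of mitochondria) at 0.32 ± 0.05 (SE, edgeR adjusted p = 0.00015) and ACAD10, an acyl-CoA dehydrogenase, at 0.31 ± 0.05 (SE, edgeR adjusted p = 9.4e-05). Their most abundant gene, the lipoprotein receptor SCARB1, rose by 0.12, a call lost in 3 of 19 alternative analyses. Of autophagy and lysosome genes 5 of 11 members were called higher and 2 lower with the guides averaged, at a median log2 fold change of 0.12. BLOC1S1 was up by 0.36 and ATG101 lower at a log2 fold change of -0.19, and the abundant tetraspanin CD63 at 0.01 ± 0.07 (SE, edgeR adjusted p = 0.91). Of endoplasmic reticulum and folding genes 2 of 8 members were called higher and 2 lower with the guides averaged, at a median log2 fold change of -0.0031. DDIT3, the stress factor CHOP, rose, with 11.50 to 15.8 CPM in the controls, 18.8 to 23.1 with sg2 and 16.7 to 22.2 with sg3 and 0.55 ± 0.09 (SE, edgeR adjusted p = 0.00015), and PTGES3, a cochaperone of HSP90, fell by 0.17. The call of ERP29, a chaperone of secretion, at 0.14, was lost in 6 of 19 alternative analyses.

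Of the 20 listed genes of the C-type lectin cluster, which spans the border of the 1st and 2nd bins, 6 were members, and 5 of 6 members were called higher and 0 lower with the guides averaged, at a median log2 fold change of 0.52. CD69, an early activation antigen, was the highest, at 64.8, 68.1, 67.7 and 64.98 CPM in the 4 control libraries, 75.9, 71.02, 88.8 and 97.8 with sg2 and 107, 92.8, 102 and 85.9 with sg3. Both guides lay above the whole control range, at 0.43 ± 0.07 (SE, edgeR adjusted p = 0.00018). KLRC2, a natural killer receptor, was read at 4.65, 4.42, 4.31 and 5.18 CPM in the 4 control libraries, 6.47, 7.55, 8.27 and 7.27 with sg2 and 10.50, 10.55, 8.18 and 8.56 with sg3. Knockout and control ranges were apart, the knockout above, at 0.86 ± 0.10 (SE, edgeR adjusted p = 4.3e-06), but its near copies in the cluster, KLRC3 among them, can share reads with it. CLEC2D, a ligand of the inhibitory receptor KLRB1, rose at 0.62 ± 0.13 (SE, edgeR adjusted p = 0.0012). Of the keratin cluster 2 of 27 listed genes were members, and both rose. KRT8, at 3.76 to 4.28 CPM in the controls, 6.20 to 9.15 with sg2 and 6.89 to 8.39 with sg3, rose by 0.89. KRT18, at 31.6 to 35.2 CPM in the controls, 41.5 to 43.8 with sg2 and 42.99 to 45.05 with sg3, rose by 0.38. The 2 genes overlap each other, and no strand setting is stated for the counting, so their reads cannot be fully told apart. Of the HOXC cluster only HOXC6 was a member, at 3.21 to 4.54 CPM in the controls, 3.39 to 4.70 with sg2 and 4.29 to 5.68 with sg3, and its call was lost in 11 of 19 alternative analyses.

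Of all members 33.4% were called higher and 12.5% lower. Blood cell genes had 8 of 11 members called higher and 0 lower, with a median of 0.14. NFE2, the erythroid and megakaryocyte transcription factor, was their most abundant, at 303 to 317 CPM in the controls, 329 to 341 with sg2 and 329 to 343 with sg3 and 0.10 ± 0.03 (SE, edgeR adjusted p = 0.011), a call lost in 1 of 19 alternative analyses. ITGB7, an integrin of lymphocyte homing, rose by 0.68 and CD9, a tetraspanin of platelets, by 0.41, a call lost in 2 of 19 alternative analyses. CD4, a coreceptor of T cells that monocytes and some leukemia lines also carry, was read at 136, 131, 133 and 123 CPM in the 4 control libraries, 171, 185, 179 and 175 with sg2 and 180.0, 185, 178 and 193 with sg3. None of the 8 knockout libraries reached into the control range, and all lay above it, at 0.47 ± 0.04 (SE, edgeR adjusted p = 1.3e-07). LRMP, a lymphoid membrane protein in the 3rd bin named after its values were seen, had the smallest p of all members in the average, at 26.6 to 29.1 CPM in the controls, 38.2 to 41.8 with sg2 and 41.6 to 44.2 with sg3 and 0.55 ± 0.04 (SE, edgeR adjusted p = 1.2e-07).

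Markers of other blood and tissue cells on the chromosome moved with the knockout where they were measured at all. Summed over their lists, in CPM of all counts, the T and natural killer cell markers were at 189.6 to 199 CPM in the controls, 247 to 275 with sg2 and 277 to 287 with sg3. The monocyte markers were at 35.2 to 43.6 CPM in the controls, 43.9 to 47.2 with sg2 and 44.9 to 52.3 with sg3. The epithelial markers were at 36.01 to 38.8 CPM in the controls, 49.6 to 50.9 with sg2 and 51.1 to 53.04 with sg3. The stromal and endothelial markers were at 14.6 to 16.8 CPM in the controls, 17.99 to 19.5 with sg2 and 21.3 to 25.5 with sg3. These sums rest on CD4 and CD69 (2 of 7), LYZ (1 of 6), KRT8 and KRT18 (2 of 4) and COL2A1 (1 of 5). The defining genes IFNG, CLEC4E and KRT5 were at 0 counts in all 12 libraries, and CD27, KLRB1, KLRD1, CLEC7A, CD163, KRT7, LUM and DCN were at or under 0.0997 CPM in every library. Markers of HEL cells were present in every library, with 10 of 10 measured, from GATA1 at 231 to 273 CPM to HBG2, a fetal globin, at 2614 to 3539 CPM. The part of these markers in the results was not tested. The fitted log2 fold change of LYZ was 0.29 ± 0.06 (SE, edgeR adjusted p = 0.0011) and that of COL2A1 0.37 ± 0.06 (SE, edgeR adjusted p = 9.7e-05).

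The largest change or the highest level of the remaining bins was held by genes of other roles. SCARNA12, a small Cajal body RNA, had the largest change of the 1st bin, with 3.24, 11.6, 5.83 and 7.21 CPM in the 4 control libraries, 7.62, 3.94, 2.59 and 6.96 with sg2 and 2.98, 2.61, 3.83 and 1.22 with sg3. The groups overlapped, the log2 fold change was -0.96 ± 0.30 (SE, edgeR adjusted p = 0.016), and the call was lost in 2 of 19 alternative analyses. SLC2A13, a proton and myo-inositol transporter in the 4th bin, rose by 0.35 and TAFA2, a secreted brain protein in the 7th, by 0.49. Some of the most abundant genes did not pass the test: ARHGDIB of the 2nd bin was at 0.06 ± 0.04 (SE, edgeR adjusted p = 0.22) and TUBA1B of the 5th at 0.01 ± 0.03 (SE, edgeR adjusted p = 0.85). TMPO of the 10th bin was at -0.02 ± 0.04 (SE, edgeR adjusted p = 0.61) and ATP2B1 of the 9th at -0.02 ± 0.04 (SE, edgeR adjusted p = 0.62). DNM1L of the 4th bin was at -0.10 ± 0.03 (SE, edgeR adjusted p = 0.021), a call lost in 4 of 19 alternative analyses, and RPL6 of the 12th at 0.08 ± 0.03 (SE, edgeR adjusted p = 0.055). CCT2, a chaperonin subunit in the 7th bin, fell by 0.14, and HSP90B1, the endoplasmic chaperone in the 11th, had -0.05 ± 0.04 (SE, edgeR adjusted p = 0.29).

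Between the guides, edgeR called 0 of the 703 members higher and 0 lower for sg3 against sg2, where 0.00714% of all genes tested were called. At an unadjusted p under 0.05 there were 111 members (15.8%), against 2098 of 13996 genes tested (15.0%). All 4 sg3 libraries lay above all 4 sg2 libraries in 18 members (3.41% of all genes tested) and below in 13 (2.54%). DESeq2 called 2 members higher and 3 lower, and limma-voom 0 and 0. Without a count filter there were 7 and 8, and without sg2 library 4 there were 7 and 4. The median log2 fold change of sg3 against sg2 was -0.0017 over the members, and in 0 of 14 bins did the sg3 libraries all lie above or all below the sg2 libraries (0.352% and 2.11% of bins elsewhere). For single bins the fitted difference ran from -0.08 in the 9th bin to 0.02 in the 8th. A missed threshold does not show that the guides act alike.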

How the data were processed

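RNA-seq libraries of HEL cells with a luciferase guide or KDM4C guide sg2 or sg3 were compared, 4 each. Per the study's methods, the authors used Trimmomatic 0.39 for trimming, STAR 2.7.4a for alignment (build hg38) and featureCounts 2.0.1 for counting read pairs per gene; no strand option is stated, so antisense and overlapping genes cannot be fully told apart. The deposited values are raw counts per gene. Totals ran from 10031809 to 78966125 counts. The table has 20 broken lines, and the 6 genes they touch, 1 on chromosome 12 (CACNA1C), were left out. Per-sample columns that matched no sample numbered 0.

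Genes were placed at their smallest start on chromosome 12, because 10 members also have entries on other contigs. Counts of 13996 genes that passed filterByExpr (minimum count 10, minimum total 15) were fitted in 1 model over all 3 groups with edgeR 4.0.16 (TMM, quasi-likelihood test, prior count 2; R 4.3.3), and p-values were adjusted by Benjamini-Hochberg over all of them, with 0.05 as the threshold. The common biological coefficient of variation was 6.24%. Medians were taken with Python 3.11.15. The fitting was tested on simulated data. Alternatives were limma-voom (limma 3.58.1), DESeq2 1.42.0, other size factors, no count filter, the replicate number as a block, leaving out libraries, 5 Mb bins, means, and protein-coding or well expressed members. Placing genes by the smallest start over all contigs was chosen after seeing the data.

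Members and lists were chosen with earlier results of these data known. Named genes were, among members whose mean log2 CPM reached 2, the 10 largest rises and 10 largest falls called with one sign in the average and with both guides, the largest called change and the highest level of each bin, (with no minimum level) the highest member of each list and the 3 called ones that changed most, and the called extremes of sg3 against sg2. Genes outside the rule are named as such or illustrate a site, a marker or a list.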

Additional observations from a re-analysis of the deposited data

Results flagged for a closer look

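In 6 of 105 groups of 4 libraries examined, 1 library lay far from the other 3 of its group, and chance alone gives about 1 in 20. The median of the 4th bin in sg2 library 4 was -0.0753, where the other sg2 libraries lay between -0.00738 and 0.00302. The median of the 10th bin in the same library was 0.0805, against 0.156 to 0.161 in the others. The median of the 12th bin in sg3 library 2 was 0.103, against 0.0763 to 0.0808. Of single genes, ALDH2 was at 11.5 CPM in sg2 library 1 and at 12.5 to 12.6 CPM in the other sg2 libraries, C12orf45 was at 26.1 CPM in sg3 library 3 and at 22.1 to 22.5 CPM in the others, and SLC2A3 was at 314.9 CPM in control library 3 and at 302.0 to 304.0 CPM in the others.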

How the results depend on the processing

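For the named genes, 4939 of 5133 values under an alternative kept direction and side of the threshold, 161 lost the call, 33 gained it and 0 reversed. Of the bin medians, 59 of 1330 moved by more than the spread between replicates, and 111 of 2360 list counts moved by over 1.5 times. For sg3 against sg2, members called higher and lower were 7 and 8 with no count filter and 2 and 3 with DESeq2. Leaving out 1 library at a time gave 0 to 7 higher and 0 to 4 lower, with 7 and 4 without sg2 replicate 4 and a median of -0.00578 to 0.00673. In the average it gave 202 to 243 higher, 69 to 93 lower and a median of 0.0534 to 0.0695. For sg2 it gave 143 to 191 higher, 28 (without sg2 replicate 3) to 55 lower, 30 without control replicate 1, and a median of 0.0547 to 0.0808. For sg3 it gave 199 to 233 higher, 78 to 103 lower and a median of 0.0438 to 0.0624. Means in place of medians were 0.0935 in the average, 0.0906 with sg2 and 0.0964 with sg3.

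Bins with every knockout library above control numbered 5 to 6 in the average, 6 to 7 with sg2 and 6 to 7 with sg3 when 1 library was left out, and bins below 0 to 1, 1 and 0 to 2; for sg3 against sg2 they were 0 above and 0 to 1 below. Without sg2 replicates 1 and 2, sg2 had 3 bins below and sg3 against sg2 had 1 above. Bins of 5 Mb gave 1 below with sg2. Means, members whose mean log2 CPM reached 2 and protein-coding members each gave 1 below in the average and 1 with sg3, and protein-coding members 1 below for sg3 against sg2. Bins above in the average, with sg2 and with sg3 were 7, 7 and 7 with means. They were 5, 5 and 5 with members whose mean log2 CPM reached 2, and 5, 6 and 5 with protein-coding members. Placing genes by the smallest start over all contigs gave 6, 6 and 7 above. The causes were not tested.

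With the replicate number as a block, calls higher and lower were 230 and 87 in the average, 182 and 47 with sg2, 228 and 100 with sg3 and 0 and 0 between the guides, with 1 bin below in the average, 2 with sg3 and 1 for sg3 against sg2. No pairing by replicate number was detected: same-numbered libraries had correlations of -0.167 to 0.180 over 12 pairs, and 2 of 12 libraries correlated best with their own number. Whether same-numbered libraries shared a batch or handling step was not tested. Depth limits low genes most, since the shallowest library had 10031809 counts.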

Other observations

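The median log2 fold change in the average was 0.18 over the 41 long noncoding RNAs of the chromosome and 0.06 over its 634 protein-coding genes. Of the former 11 were called higher and 1 lower by edgeR, and of the latter 222 and 84, where 21.6% and 22.3% of all genes tested were. On the other chromosomes these medians were 0.05 and -0.01. Split into 3 equal classes of level, the members had medians, from low to high, of 0.12, 0.05 and 0.03, against 0.05, -0.03 and -0.03 on the other chromosomes. Over 702 pairs of neighbouring members, the log2 fold changes of the average had Pearson's r of 0.11 and Spearman's rho of 0.13. These pairs share libraries and overlap in genes, so the correlation across genes is a description.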
